A study of Mus musculus with 10 samples.

Results

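The genes described here are 9 genes of BMP and activin signaling, chosen by name from the 45706 rows of the deposited count table. They are the BMP ligands *Bmp2*, *Bmp4* and *Bmp7*, the activin subunits *Inhba* and *Inhbb*, the antagonists *Fst*, *Nog* and *Grem1*, and the receptor *Bmpr2*. All 9 were found in the table by their Ensembl identifiers, and all 9 passed the filter on low counts. The study sequenced uterine RNA of 5 *Arid1a* f/f mice, which carry floxed alleles without a Cre and served as controls, and of 5 *Ltf* iCre/+ *Arid1a* f/f mice, which carry the same floxed alleles and a Cre in the lactoferrin locus and are called knockouts from here on. All were mature adult females of a mixed strain background, mated with wildtype males and collected at gestation day (GD) 3.5, just before implantation. The lactoferrin Cre acts in the endometrial epithelium of adult mice and may also act in neutrophils and other myeloid cells. The RNA came from a piece of the whole uterine wall, so *Arid1a* transcripts of cells without the Cre remain in it. The labels number the uteri within each genotype but name no litter or batch.

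BMPs and activins are secreted dimers of the TGF-beta superfamily. BMPs bind type I receptors together with a type II receptor such as BMPR2 and signal through SMAD1, SMAD5 and SMAD9, whereas activins bind ACVR2A or ACVR2B with ACVR1B or ACVR1C and signal through SMAD2 and SMAD3. Follistatin traps activins, and noggin and gremlin trap BMPs, before they reach a receptor. In the mouse uterus, *Bmp2* is induced in the stroma around the implanting embryo and is needed for decidualization, *Bmp7* and *Fst* are needed for receptivity, and *Bmpr2* for maintenance of the decidua.

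Total counts per library ranged from 59296537 to 72702411. Expression is given as CPM, counts scaled to 1000000 per library with TMM library sizes, and genotypes were compared by the quasi-likelihood method of edgeR, with Benjamini-Hochberg adjustment over all 25146 genes tested and a threshold of 0.05. In this test 9.70% of all genes passed, 5.19% upward and 4.51% downward. The deleted gene *Arid1a* was at 213 ± 22.9 CPM in controls and 185 ± 15.9 CPM in knockouts (mean ± SD, n = 5 per genotype), with 4 of the 5 below every control (log2 fold change -0.20, adjusted p = 0.201). *Ltf* was between 2.22 and 11.7 CPM in controls and between 23.6 and 2831 CPM in knockout uteri. Whole-tissue RNA cannot tell fewer cells of a type from less RNA per cell, so the summed CPM of short marker lists is given as a measure of composition. Epithelial markers (5 of 6 past the threshold, all upward) summed to 618 to 810 CPM in controls and 895 to 1939 CPM in knockout uteri. Endothelial markers (5 of 5 past the threshold, all downward) summed to 669 to 936 CPM and 305 to 464 CPM. Gland markers (1 of 5 downward, with *Prss28* and *Prss29* at 0 in some libraries) summed to 63.0 to 110 CPM and 7.23 to 47.0 CPM. The sums of stromal markers (10365 to 15627 and 8962 to 14771 CPM, 1 of 6 downward) and of myometrial markers (4156 to 7192 and 2105 to 5642 CPM, 0 of 5) overlapped between genotypes. So did those of macrophage markers (111 to 229 and 189 to 451 CPM, 0 of 5) and neutrophil markers (1.57 to 14.6 and 6.75 to 734 CPM, 2 of 5 upward). The stromal sum was mostly the collagens *Col1a1* and *Col3a1*, which overlapped between genotypes, as did *Hand2* and *Lum*. *Dcn* (1602 ± 198 and 1024 ± 132 CPM, edgeR adjusted p = 0.0109) and *Pdgfra* (588 ± 81.6 and 362 ± 123 CPM, edgeR adjusted p = 0.0735) were lower in knockouts without overlap. The T cell receptor genes *Cd3e* (2.25 ± 0.407 and 9.29 ± 4.67 CPM, adjusted p = 0.00512) and *Cd3g* (3.93 ± 0.737 and 20.6 ± 14.6 CPM, adjusted p = 0.00676) rose without overlap, and both were highest in knockout replicates 3 and 4. Knockout replicate 5 alone held the neutrophil sum of 734 CPM, and the next highest library was a control with 14.6 CPM. Knockout replicates 1 and 5 stood apart from the other uteri of their genotype, with the highest epithelial sums (1939 and 1341 CPM) and the lowest gland sums (7.23 and 18.6 CPM).

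Of the 9 genes, only *Bmp4* differed between genotypes in this test, and it was lower in knockout uteri. The count of 1 in 9 is near the 9.70% of all genes, and the median log2 fold change of the 9 genes was -0.04 against 0.03 over all genes tested. By eye, 3 patterns could be seen: *Bmp4* and *Bmpr2* were lower in most knockout uteri, *Inhba*, *Inhbb*, *Fst* and *Grem1* had values far from controls in some of these uteri only, and *Bmp2*, *Bmp7* and *Nog* had means close to those of controls. In 0 of the 9 genes were the values of the genotypes fully separated, against 10.7% of all genes.

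**Figure D1:**
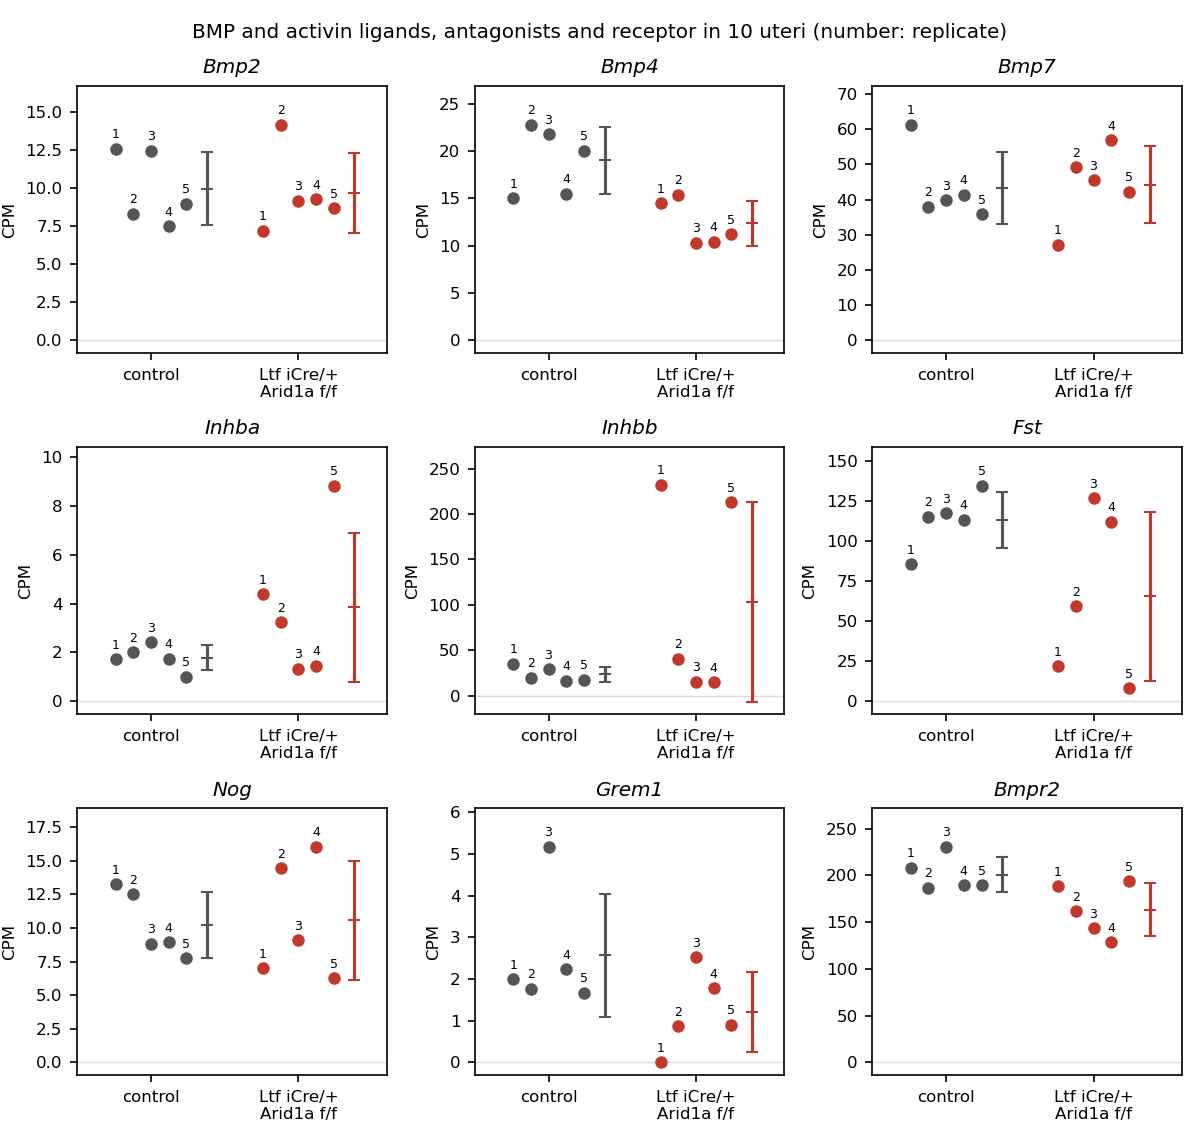
Expression of the 9 genes in CPM (vertical axes, separate for each gene) in 5 control uteri (grey) and 5 knockout uteri (red). Points are uteri labelled with their replicate number, and bars give the mean and SD. Inhbb at 232 and 213 CPM and Fst at 22.0 and 8.16 CPM set replicates 1 and 5 apart, whereas Bmp4 was lower in 4 of the 5 knockout uteri than in every control.

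*Bmp4*, a BMP ligand (ENSMUSG00000021835, chromosome 14 of GRCm38, 46383520 to 46390669, minus strand), was at 15.0, 22.8, 21.8, 15.5 and 20.0 CPM in control replicates 1 to 5. In knockout replicates 1 to 5 it was at 14.5, 15.4, 10.3, 10.4 and 11.2 CPM. All knockout uteri but replicate 2 lay below the lowest control. The mean was 19.0 ± 3.57 CPM in controls and 12.4 ± 2.40 CPM in knockouts (mean ± SD, n = 5 per genotype), 1.54-fold lower. Its log2 fold change was -0.62 (standard error 0.17, edgeR adjusted p = 0.0384 after Benjamini-Hochberg correction), and exact permutation of genotypes (two-sided, on log2 CPM) gave p = 0.0159. The call was near the threshold and passed in 4 of 10 repeats with a single uterus omitted, with adjusted p from 0.0246 to 0.0868 and log2 fold changes from -0.72 to -0.56. The fits in which it passed were those without control replicates 1 or 4 or without knockout replicates 1 or 2. The endothelial marker sums were also lower in knockout uteri, as were the stromal markers *Dcn* and *Pdgfra*. *Hand2*, *Lum*, *Col1a1* and *Col3a1* of the same stromal list overlapped between genotypes. The stromal sum overlapped too, with 10365 to 15627 CPM in controls and 8962 to 14771 CPM in knockout uteri. The part of composition in the *Bmp4* result was not tested. Relative to the summed endothelial markers, *Bmp4* was 1.73% to 2.99% in controls and 2.36% to 3.67% in knockout uteri. These data do not show which cells held *Bmp4*, and its ratio to the other marker sums is not given. Its exons share 89 bases with the opposite-strand gene model *Gm15217*, which had 0 counts in every library.

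The sequence before the *Bmp4* start site is shown because it was the ligand gene that changed, and that before the *Inhbb* start site because *Inhbb* had the widest spread of values. RefSeq promoter windows on GRCm38.p6 were found for *Bmp4*, *Bmpr2*, *Grem1*, *Inhba* and *Inhbb*, but not for *Bmp2*, *Bmp7*, *Fst* and *Nog*. The windows printed are the 250 bases before the start site on the minus strand, chr14:46390670-46390919 for *Bmp4* and chr1:119422249-119422498 for *Inhbb*, 5′ to 3′. Capitals mark the SMAD box, GTCT on either strand (AGAC).
Bmp4: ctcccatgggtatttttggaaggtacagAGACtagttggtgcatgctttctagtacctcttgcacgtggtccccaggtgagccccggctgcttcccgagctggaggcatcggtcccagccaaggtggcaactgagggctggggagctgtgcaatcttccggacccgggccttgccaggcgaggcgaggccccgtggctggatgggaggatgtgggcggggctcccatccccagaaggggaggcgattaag
Inhbb: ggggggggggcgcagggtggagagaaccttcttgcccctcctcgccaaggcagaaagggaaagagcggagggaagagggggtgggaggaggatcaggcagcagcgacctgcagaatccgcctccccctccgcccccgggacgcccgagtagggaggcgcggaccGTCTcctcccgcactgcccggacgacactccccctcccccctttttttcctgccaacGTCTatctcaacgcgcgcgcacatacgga

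The *Bmp4* window held 1 SMAD box and the *Inhbb* window 2, and so short a motif stood in 82.9% of all 32851 promoter windows of the same length. Both windows held a GC box (GGGCGG or CCGCCC), as did 32.7% of all windows. Neither held GGCGCC, an element bound by BMP-activated SMADs, which was in 9.59% of all windows, nor a TATAAA box (12.4%) or the half-site TGACG of the cyclic AMP response element (17.8%). Of the other 3 windows, those of *Bmpr2* (whose RefSeq start lies inside the GENCODE gene) and *Grem1* held GGCGCC, and that of *Inhba* held TATAAA. The G and C content was 63.2% for *Bmp4*, 68.0% for *Inhbb*, 72.0% for *Grem1*, 64.0% for *Bmpr2* and 43.2% for *Inhba*, against a median of 52.4% over all windows.

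*Bmp2*, the ligand that decidualizing stroma depends on (ENSMUSG00000027358, chromosome 2, 133552159 to 133562885), had a mean of 9.96 ± 2.40 CPM in controls and 9.69 ± 2.63 CPM in knockouts (mean ± SD, n = 5 per genotype). Control values lay between 7.48 and 12.6 CPM, and those of knockout uteri were 7.20, 14.2, 9.17, 9.25 and 8.67 CPM. The genotypes overlapped almost completely. The difference on the log2 scale was -0.04 (adjusted p = 0.931), and the approximate 95% interval reached from -0.45 to 0.37, which leaves room for differences of either sign below about this size. *Bmp7*, a ligand that the uterus needs for receptivity (ENSMUSG00000008999, chromosome 2, 172868012 to 172940321), was at 43.2 ± 10.3 and 44.2 ± 11.0 CPM (mean ± SD of 5 uteri per genotype). Its log2 fold change was 0.03 (adjusted p = 0.944), with an approximate 95% interval from -0.35 to 0.41. Control replicate 1 had the highest *Bmp7* value (61.2 CPM) and knockout replicate 1 the lowest (27.2 CPM), and the other 8 uteri lay between 35.8 and 56.9 CPM.

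*Inhbb*, which encodes the beta B subunit of activin B (ENSMUSG00000037035, chromosome 1, 119415465 to 119422248), had the highest fitted fold change of the 9 genes. It was at 35.1, 19.8, 28.9, 16.4 and 17.5 CPM in control replicates 1 to 5. It was at 232, 40.4, 15.4, 14.6 and 213 CPM in knockout replicates 1 to 5. Replicates 1 and 5 were far above every control, replicate 2 just above the highest control, and replicates 3 and 4 below the lowest. The means were 23.5 ± 8.11 and 103 ± 110 CPM (mean ± SD of 5 uteri per genotype), and the log2 fold change of 2.13 (standard error 0.74) gave 0.0938 as edgeR adjusted p and 0.270 as exact permutation p. With DESeq2, in which 19.0% of genes with an adjusted p passed, it was 0.0414. Without knockout replicate 3 the adjusted p of edgeR was 0.0475. Without replicates 1 and 5 together, an omission chosen after seeing the data, the log2 fold change of *Inhbb* was -0.0048 (standard error 0.35, edgeR adjusted p = 0.996). These uteri were picked for their high *Inhbb* and low *Fst* values. A move toward 0 in both genes therefore had to follow, and nothing is concluded from it.

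*Inhba*, the beta A subunit of activin A (ENSMUSG00000041324, chromosome 13, 16011851 to 16031621), was a low-level transcript. Controls had 1.72, 2.01, 2.41, 1.75 and 1.00 CPM. Knockout replicates 1 to 5 had 4.39, 3.24, 1.34, 1.45 and 8.83 CPM. As for *Inhbb*, replicates 1, 2 and 5 were above every control and replicates 3 and 4 were not. The difference of 1.11 on the log2 scale (standard error 0.48) missed the threshold (edgeR adjusted p = 0.168, exact permutation p = 0.175). It was 0.55 without knockout replicate 5 and 0.18 without replicates 1 and 5 together. Those uteri also had the highest *Inhba* values and were picked after seeing the data, so the smaller difference had to follow.

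*Fst*, which encodes follistatin, the activin-binding antagonist (ENSMUSG00000021765, chromosome 13, 114452290 to 114458951), had the opposite extremes in the same libraries. Controls were at 85.8, 115, 118, 114 and 135 CPM. Knockout replicates 1 to 5 were at 22.0, 59.3, 127, 112 and 8.16 CPM. Replicates 1, 2 and 5 lay below every control, whereas replicates 3 and 4 lay within the control range. The means were 113 ± 17.6 and 65.8 ± 52.9 CPM (mean ± SD of 5 uteri per genotype), and the log2 ratio of -0.79 (standard error 0.56) missed the threshold (edgeR adjusted p = 0.421, exact permutation p = 0.103). It was -0.50 without replicate 5, -0.56 without replicate 1 and -0.19 (edgeR adjusted p = 0.655) without both. Both uteri were picked partly for these low *Fst* values, so the smaller difference without them had to follow. The exons of *Fst* share 115 bases with the antisense model *Gm47040*, which has no row in the table.

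**Figure D2:**
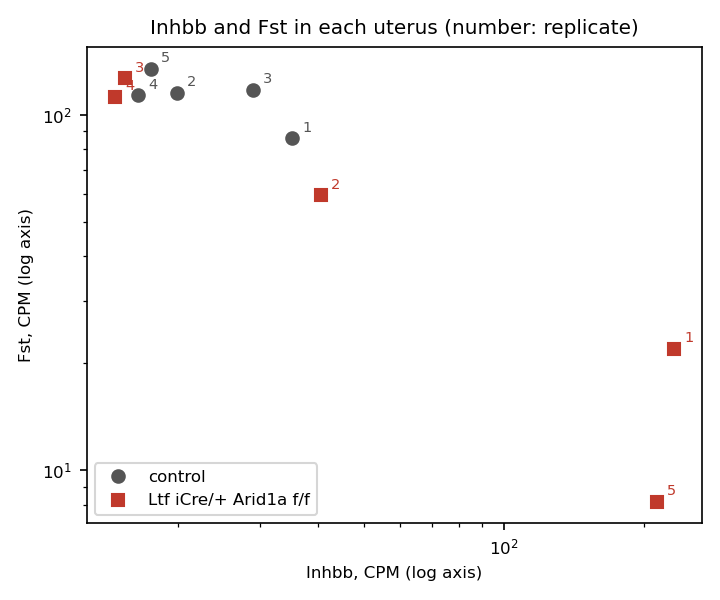
Expression of Inhbb (horizontal, CPM, log axis) against Fst (vertical, CPM, log axis) in each of 5 control uteri (grey circles) and 5 knockout uteri (red squares), labelled with the replicate number. Replicates 1 and 5 lie at lower right with Inhbb at 232 and 213 CPM and Fst at 22.0 and 8.16 CPM, replicate 2 lies between them and the controls, and replicates 3 and 4 lie among or beside the controls.

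Per length, as RPKM (CPM per kilobase of a gene's merged exons), the ratio of *Fst* to *Inhbb* was between 2.27 and 7.16 in control uteri. It was 0.0879, 1.36, 7.67, 7.14 and 0.0355 in knockout replicates 1 to 5. The antagonist transcript was thus more abundant than that of the subunit in every control and in replicates 2, 3 and 4, and less abundant in replicates 1 and 5. These 2 libraries were also those with the highest epithelial and the lowest gland marker sums, and the part of composition in the *Inhbb* and *Fst* values was not tested. The neutrophil sum was 8.78 CPM in replicate 1 and 734 CPM in replicate 5.

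*Nog*, encoding the BMP antagonist noggin (ENSMUSG00000048616, chromosome 11, 89300638 to 89302332), was at 7.74 to 13.2 CPM in controls and at 7.02, 14.4, 9.11, 16.1 and 6.26 CPM in knockout uteri. Replicates 1 and 5 were below every control and replicates 2 and 4 above, and the means were 10.3 ± 2.46 and 10.6 ± 4.42 CPM (mean ± SD of 5 uteri per genotype). Its log2 fold change was 0.04 (adjusted p = 0.944), with an approximate 95% interval from -0.50 to 0.59. The ratio of *Nog* to *Bmp4* per length was 0.512 to 1.17 in controls and 0.642, 1.25, 1.17, 2.04 and 0.743 in knockout uteri, so the ranges overlapped.

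*Grem1*, encoding the BMP antagonist gremlin (ENSMUSG00000074934, chromosome 2, 113746164 to 113758646), was at 2.00, 1.77, 5.17, 2.23 and 1.67 CPM in controls. Knockout replicate 1 had 0 counts, which by counting error alone allows up to 3, and replicates 2 to 5 had 0.862, 2.52, 1.77 and 0.897 CPM. Replicates 1, 2 and 5 were again below every control. The difference of -1.08 on the log2 scale (standard error 0.78) missed the threshold (edgeR adjusted p = 0.425, exact permutation p = 0.103), and it was -0.67 without control replicate 3.

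*Bmpr2*, the type II receptor for BMPs (ENSMUSG00000067336, chromosome 1, 59763400 to 59879014), was at 208, 187, 230, 189 and 189 CPM in controls. Knockout replicates 1 to 5 had 188, 162, 143, 129 and 194 CPM. Replicates 2, 3 and 4 lay below every control, and replicates 1 and 5 lay within the control range. The means were 201 ± 18.7 and 163 ± 28.1 CPM (mean ± SD of 5 uteri per genotype), and the difference of -0.30 on the log2 scale (standard error 0.12) missed the threshold (edgeR adjusted p = 0.142, exact permutation p = 0.0635). Without replicates 1 and 5 together it was -0.47 (standard error 0.10, edgeR adjusted p = 0.0174), but that omission was chosen after seeing the data and removes the highest *Bmpr2* values of the knockouts, so it is no evidence of a fall. The uteri with the lowest *Bmpr2* values were thus not those with the extreme *Inhbb* and *Fst* values.

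**Figure D3:**
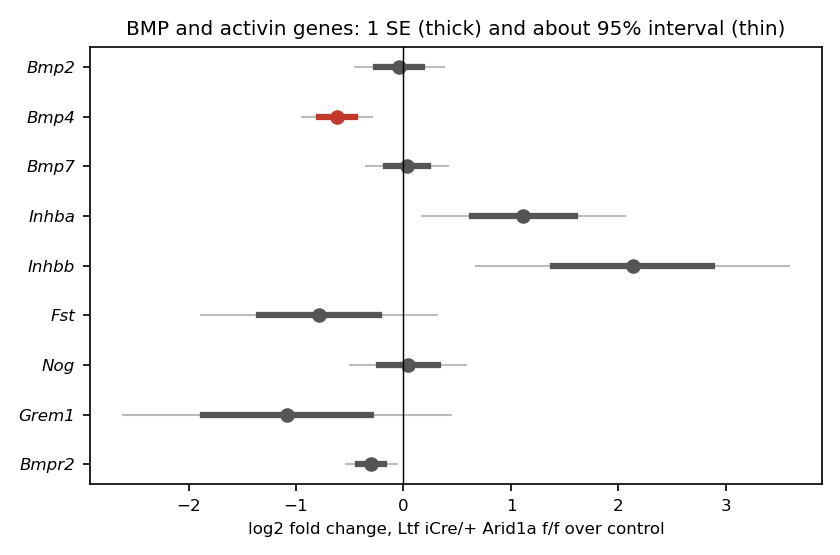
Log2 fold change of knockout over control uteri (horizontal axis) for the 9 genes, with 1 standard error (thick line) and the approximate 95% interval (thin line). Bmp4 at -0.62 (red) passed the edgeR test, and Inhbb at 2.13 had the widest departure with a standard error of 0.74.

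Per length, the order of the 9 genes in control uteri was led by *Fst* with 24.7 ± 3.84 RPKM (SD, n = 5), which lay above all others in every control. *Bmpr2* (11.2 RPKM), *Bmp7* (10.8 RPKM), *Bmp4* (8.46 RPKM), *Nog* (6.05 RPKM) and *Inhbb* (5.53 RPKM) followed, and the ranges of each neighbouring pair among these 5 overlapped. *Bmp2* (2.80 RPKM) lay below them without overlap, as did *Grem1* (0.619 RPKM) below *Bmp2* and *Inhba* (0.278 RPKM) below *Grem1*. In knockout uteri the mean of *Inhbb* (24.2 ± 25.8 RPKM) was above that of *Fst* (14.3 ± 11.5 RPKM), and both SDs were large beside their means.

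The rest of the pathway was examined with 61 further genes in 5 lists, of which 57 passed the filter on low counts. With edgeR 8 of these 57 passed the threshold, against 9.70% of all genes, 2 upward and 6 downward, and their median log2 fold change was -0.08. With DESeq2 16 of the genes passed, against the 19.0% of all genes given above.

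Among receptors and co-receptors 5 of 12 passed, against the same 9.70%, 1 upward and 4 downward. *Acvrl1*, an endothelial type I receptor for BMPs of the vessel wall, fell from 78.1 ± 12.3 to 49.9 ± 7.29 CPM (mean ± SD of 5 uteri per genotype), with a log2 ratio of -0.65 (adjusted p = 0.0110). *Eng*, its co-receptor endoglin, fell from 140 ± 31.2 to 90.1 ± 15.6 CPM (log2 fold change -0.64, adjusted p = 0.0347). The *Eng* call was lost without any 1 of control replicates 1 to 4 or knockout replicates 3 and 4 (adjusted p up to 0.0750), and its exons share 61 bases with *Fpgs* on the other strand. Both genes are known from endothelial cells, whose marker sum was lower in every knockout uterus, and the part of composition in their change was not tested. *Acvrl1* was 8.03% to 10.6% of the endothelial sum in controls and 11.7% to 13.0% in knockout uteri, and *Eng* was 14.6% to 19.6% and 17.8% to 35.2%.

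The co-receptor *Tgfbr3* (betaglycan), which lets inhibins compete with activins, fell from 255 ± 42.1 to 154 ± 32.0 CPM (log2 fold change -0.73, adjusted p = 0.0203). Its exons share 297 bases with *Gm43422* on the same strand, and its call was lost without control replicate 2 or 3 (adjusted p = 0.0547 and 0.0533). *Rgmb*, a BMP co-receptor, fell from 75.0 ± 5.03 to 50.5 ± 9.08 CPM (log2 fold change -0.57, adjusted p = 0.0131). *Tgfbr3*, *Rgmb* and *Acvrl1* were lower in each of the 5 knockout uteri than in any control.

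*Acvr1c* (ALK7), a type I receptor that activin B and Nodal can use, was the receptor that rose. It was at 0.126, 0.0418, 0.125, 0.142 and 0.244 CPM in controls. It was at 2.18, 0.997, 2.29, 2.47 and 0.492 CPM in knockout replicates 1 to 5. Every knockout uterus lay above every control, though the libraries held only 3 to 170 counts of this gene. The difference on the log2 scale was 3.62 (standard error 0.53, edgeR adjusted p = 0.00280), and 3.38 to 3.93 with each uterus left out. Unlike *Inhbb* itself, *Acvr1c* was high in replicates 3 and 4 and lowest in replicate 5. The most abundant gene of the list per length was *Bmpr1a*, a type I receptor for BMPs, at 32.6 ± 0.960 and 33.3 ± 5.84 RPKM (log2 fold change 0.03, adjusted p = 0.905).

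Among 17 other ligands tested, 1 passed, against 9.70% of all genes. *Gdf11*, a ligand that uses activin receptors, fell from 56.3 ± 4.92 to 41.2 ± 7.22 CPM (log2 fold change -0.45, adjusted p = 0.0397), with no overlap between genotypes. The call was lost without any 1 of the controls or knockout replicate 4 (adjusted p up to 0.0851). *Gdf10* was the most abundant of these ligands per length and was at 20.0 ± 3.75 and 20.9 ± 4.12 RPKM (adjusted p = 0.838). *Bmp10*, *Inhbc* and *Inhbe* did not reach a mean of 1 count per library and were not tested.

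Of 12 other antagonists and modulators tested, 0 passed with edgeR, against 9.70% of all genes. With DESeq2 2 passed, against 19.0% of all genes, and 4 had an unadjusted p under 0.05 in edgeR. *Fstl1*, a secreted follistatin-like glycoprotein, was the most abundant per length at 168 ± 14.9 and 133 ± 24.2 RPKM (log2 fold change -0.33, adjusted p = 0.126).

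Of the 6 SMAD genes, 1 passed, against 9.70% of all genes. *Smad1*, a BMP-activated SMAD, fell from 111 ± 8.50 to 85.3 ± 7.33 CPM (log2 fold change -0.37, standard error 0.08, edgeR adjusted p = 0.0187). All 5 knockout uteri lay below every control for *Smad1*. *Smad4*, the common partner of all receptor-activated SMADs and the most abundant of the list per length, was at 30.8 ± 1.81 and 30.5 ± 3.60 RPKM (adjusted p = 0.947).

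Of 10 genes that respond to BMP in many cells, 1 passed, against 9.70% of all genes. *Msx2*, a homeobox gene, was at 2.46, 2.12, 1.80, 4.60 and 2.23 CPM in controls. It was at 28.3, 12.0, 5.61, 10.3 and 18.8 CPM in knockout replicates 1 to 5, higher than any control. On the log2 scale this was 2.50 (standard error 0.42, edgeR adjusted p = 0.00523). The related *Msx1* was the most abundant gene of the list per length, at 58.0 ± 10.9 and 62.6 ± 15.5 RPKM (log2 fold change 0.11, adjusted p = 0.760). The highest *Msx2* values were in the libraries with the highest epithelial marker sums, replicates 1 and 5, and the part of composition in the rise was not tested. Without both libraries, an omission chosen after seeing the data, the log2 fold change of *Msx2* was 1.82 (edgeR adjusted p = 0.00647). Knockout replicates 2, 3 and 4, which remained, had epithelial sums of 1048, 895 and 1116 CPM, still above every control. The omission therefore cannot separate the *Msx2* rise from composition. Over the list, 7 of 10 log2 fold changes were above 0 and 3 below, and the median was 0.15. DESeq2 called 4 genes of this list, against 19.0% of all genes. They were *Msx2* and the 3 with a negative fold change, which missed the edgeR threshold and are named after their values were seen. The 3 were *Id3*, an inhibitor of helix-loop-helix factors (log2 fold change -0.46, edgeR adjusted p = 0.0699, DESeq2 adjusted p = 0.0331), *Bambi*, a decoy receptor (-0.84, 0.0510 and 0.00947), and *Atoh8*, a helix-loop-helix factor (-0.72, 0.0794 and 0.0187). In each of them 4 of the 5 knockout uteri lay below every control. *Smad6* (0.32, 0.173 and 0.0924), *Id1* (0.42, 0.246 and 0.229) and *Id2* (0.42, 0.174 and 0.147) went the other way and were called by neither test. Of the 5 knockout uteri, 4 lay above every control for *Smad6*, 3 for *Id2* and 0 for *Id1*.

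**Figure D4:**
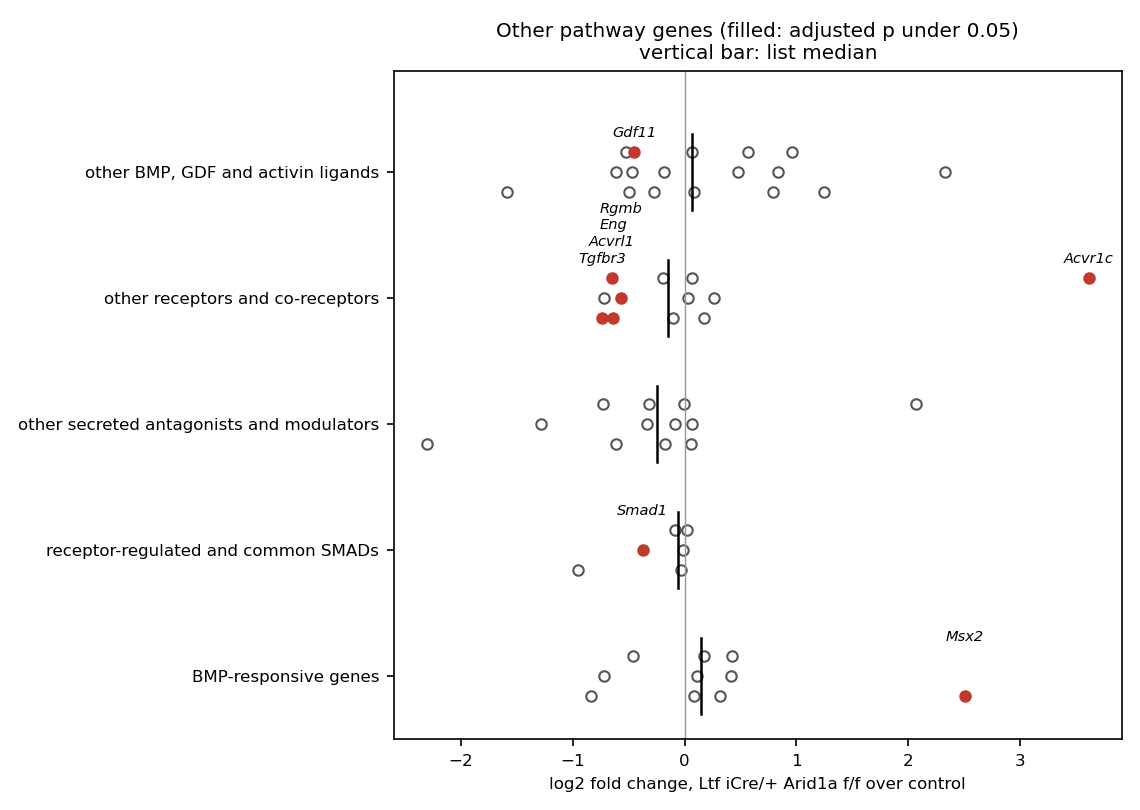
Log2 fold change of knockout over control uteri (horizontal axis) for 57 other genes of the pathway in 5 lists (rows). Filled red points passed the edgeR test (adjusted p below 0.05) and are named, open points did not, and a vertical bar marks each list's median. Acvr1c at 3.62 and Msx2 at 2.50 are the called genes to the right of 0, and the other 6 called genes lie between -0.73 and -0.37.

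*Bmp4* was compared with 14590 other genes of at least 100 counts on average, by Pearson's r of log2 CPM over the 10 uteri, as a description. The most alike were *Acap2* (r = 0.96), *Zfand3* (r = 0.95) and *Vegfd* (r = 0.95). The points include both genotypes, so the difference between genotypes enters these values. *Vegfd*, a growth factor of lymphatic vessels, had a mean of 38.7 CPM in controls and 14.3 CPM in knockout uteri (log2 fold change -1.43, adjusted p = 0.00961).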

How the data were processed

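Uterine mRNA libraries of 10 mice were read by the authors from both ends over 50 bases. Per the labels, reads were trimmed with cutadapt 1.18 and Trim Galore 0.6.4, checked with FastQC 0.11.9 and aligned to GRCm38 with STAR 2.7.3a. The authors deposited raw counts per Ensembl gene from STAR's GeneCounts mode. The annotation release and the strand setting are not given in the sources used here. Symbols, coordinates and merged exon lengths came from GENCODE M21, which held 45143 of 45706 identifiers. Genes averaging under 1 count per library were dropped. Counts were tested in R 4.3.3 with edgeR 4.0.16 (TMM, quasi-likelihood test of genotype with no covariate, p-values adjusted by Benjamini-Hochberg across the table). DESeq2 1.42.0, which the study used, was an alternative, without independent hypothesis weighting. Standard errors are the log2 fold change over the root of the F statistic. For single genes an exact permutation of genotypes (two-sided, 252 arrangements, log2 CPM with prior count 2) was added, whose smallest p is 0.00794. Approximate 95% intervals come from these standard errors. These exact p-values were not adjusted. P-values set the difference between genotypes against the spread among these uteri.

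Genes named besides the 9 were those past the threshold and the most abundant per length in each pathway list, *Arid1a* and *Ltf*, and the 3 genes most like a called gene. *Id1*, *Id2*, *Id3*, *Smad6*, *Bambi* and *Atoh8* were added after their values were seen, and some marker genes were named too. The genes, lists and markers were chosen with earlier results of these data known. Same-genotype libraries differed by a chi-square of at least 33.3 per gene and were not duplicates. A simulated comparison of 5 against 5 libraries held 24166 genes, of which 200 were given a difference. Of these edgeR recovered 59.5%, with 7 false calls, and 54.5% with the replicate block, with 13 false calls. DESeq2 recovered 74.5%, with 60 false calls. Only 200 genes were changed, against 2438 called by edgeR in the real data, and counts were drawn with spreads estimated by edgeR. These simulated rates may therefore not hold for the real data. Genes called here by DESeq2 alone, such as *Inhbb*, *Id3*, *Bambi* and *Atoh8*, missed the threshold of the main test and are to be read with more caution. Values of some listed genes and the sum of the lymphocyte marker list are not reported here. Drawings were made with matplotlib 3.10.9.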

Additional observations from a re-analysis of the deposited data

Results flagged for a closer look

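In 34 groups of 5 uteri (17 genes in each genotype), 4 values stood apart by Dixon's gap over the group's range, where chance gives about 1 in 20 groups. *Bmp7* in control replicate 1 was at 61.2 CPM with the next control at 41.4 CPM. *Grem1* in control replicate 3 was at 5.17 CPM with the next control at 2.23 CPM. *Tgfbr3* in *Ltf* iCre/+ *Arid1a* f/f replicate 5 was at 98.5 CPM with the nearest uterus of that genotype at 157 CPM. *Msx2* in control replicate 4 was at 4.60 CPM with the next control at 2.46 CPM. The values of *Inhbb* and *Fst* in replicates 1 and 5 were not set apart in this way, since each extreme value had a neighbour.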

How the results depend on the processing

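The *Bmp4* call was lost with the replicate number as a block (log2 fold change -0.62, adjusted p = 0.0590 from edgeR) and without *Ltf* iCre/+ *Arid1a* f/f replicates 1 and 5 together, an omission chosen after seeing the data (-0.66, adjusted p = 0.0515). That omission also gave 0.12 for *Bmp2*, and -0.0048 for *Inhbb*, whose high values were a reason for the choice. For *Bmpr2* it gave -0.47 (edgeR adjusted p = 0.0174, with its highest values in that genotype removed). DESeq2 gave 2.14 for *Inhbb* (adjusted p = 0.0414). Of the 9 genes, DESeq2 called 2 and the block 0. DESeq2 called 4103 genes of the whole table and 16 of the other pathway genes. With 1 uterus left out, these counts ranged from 0 to 1, from 1204 to 2381 (lowest without control replicate 2) and from 5 to 12. The log2 fold changes then ranged from -0.22 to 0.053 for *Bmp2*, -0.72 to -0.56 for *Bmp4*, -0.0762 to 0.19 for *Bmp7*, 0.55 to 1.33 for *Inhba*, 1.58 to 2.41 for *Inhbb*, -1.17 to -0.50 for *Fst*, -0.16 to 0.18 for *Nog*, -1.54 to -0.67 for *Grem1* and -0.37 to -0.23 for *Bmpr2*. The block gave -0.0234 for *Nog*, 1.24 for *Inhbb*, 0.78 for *Inhba* and -1.28 for *Fst*, and it ended the calls of *Eng*, *Tgfbr3* and *Smad1* (adjusted p = 0.0783, 0.0558 and 0.0584). Same-numbered uteri did not deviate together (correlations from -0.05 to 0.13), so the numbers were not read as pairs. The cause of these changes was not tested. *Grem1* and *Inhba* had the fewest counts (0 to 330 and 70 to 610), which limits their precision.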
